A study of Mus musculus with 3 samples.

Results

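Among the 7821 cells of the mouse tendon differentiation culture, 1088 cells carried cluster code 3 in the deposited count table, which is 13.9% of the culture (95% exact binomial interval 13.2 to 14.7%) and part of 15827 cells in the whole series. Membership was taken from the cluster code that the authors placed in the first row of the table, and the cells were described against the other 6733 cells of the same table. The code came from clustering on gene expression, so every difference between these cells and the rest is a description of the cluster and carries no test. The study asked which signals turn mouse embryonic stem cells (mESCs) into tendon cells. The mESC lines were derived from blastocysts of mice with the ScxGFP reporter, in which green fluorescent protein follows the tendon transcription factor Scx, and were kept on embryonic fibroblast feeders with serum and leukaemia inhibitory factor (LIF). They were aggregated into embryoid bodies with the BMP inhibitor LDN-193189, taken towards paraxial mesoderm with the WNT agonist CHIR and LDN-193189, and then grown as a monolayer with TGFβ1, the Hedgehog agonist SAG and FGF2 in serum-free medium, and which line went into the library is not given in the sources used here. The series also holds a library of cells differentiated to paraxial mesoderm and a library of the E14.5 mouse embryo tail. Each condition was 1 library of live cells on the 10x 3′ platform, which counts molecules by unique molecular identifiers (UMIs), so no spread between cultures was measured, and all intervals below cover counting error only.

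Pluripotent cells are held in an undifferentiated state by a circuit of transcription factors around Oct4 (the product of Pou5f1), Sox2 and Nanog. In the mouse the state has grades. Naive cells, which resemble the inner cell mass, use Zfp42, Esrrb, Klf2, Tfcp2l1 and Dppa3, while formative and primed cells, which resemble the epiblast at and after implantation, gain Otx2, Pou3f1, Dnmt3b and Fgf5. LIF supports the naive grade, and FGF with Nodal signalling supports the later ones, and exit from the circuit precedes any commitment to a germ layer.

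The 1088 cells were deep. They held 11727074 UMIs, 22.0% of those in the culture, with a median of 10369.5 UMIs per cell (2325 to 20902) against 5170 in the other cells, and a median of 3816 detected genes against 2533. When every cell was thinned to 3000 UMIs the gap closed, with a median of 1732 genes in code 3 and 1746 in code 1, the largest cluster, whose leading genes are those of tendon. The median share of mitochondrial transcripts was 1.74% against 1.68%, and ribosomal protein transcripts made up 9.99% of the UMIs against 6.17% in code 1. The culture shared 4 cell barcodes with the tail library and 10 with the paraxial mesoderm library, of which 1 in each case belonged to a code 3 cell. Scrublet called 26 of the 1088 cells doublets (2.39%, 1.57 to 3.48%), compared with 116 of all 7821 cells (1.48%).

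The defining markers of epidermis, which tail cells of the same code number carried, were near 0 in these cells. Krt5 and Krt14, the keratins of basal epidermis, and Trp63, the master regulator of stratified epithelium, each had 0 UMIs among 11727074, which allows a level of up to 0.256 UMIs per 1000000 (CPM) by a floor of 3 UMIs. Krt5 was also at 0 UMIs in the other culture cells, and Krt14 and Trp63 were at 0.120 and 0.384 CPM there, so low levels of them were not particular to code 3. The 4 epidermis markers together gave 3 UMIs, all from Krt15. Of the wider list of 9 epidermis genes, 4 had enough UMIs to compare, of which 1 was at least 2-fold higher than in the other culture cells, Sfn at 42.7 against 18.4 CPM, and 1 lower, Dsp at 5.03 against 11.6 CPM. Over all genes compared 14.3% were at least 2-fold higher and 22.4% lower. In the tail library the 49 cells with code 3 had 2687 CPM of Krt14 and 1143 CPM of Krt5. They had 3.33 CPM of Pou5f1, with Nanog and Dppa5a at 0 UMIs, so the shared code number held different cells in culture and tail. The paper assigned culture cells to clusters of the tail by nearest neighbours. It reports that in some non-fibrous clusters the culture and tail cells were poorly integrated. The culture cells of code 3 carried the pluripotency genes Pou5f1, Nanog, Utf1 and Dppa5a, and they are called pluripotent-like below. Which of the study's published clusters this code stands for is not settled: by its number of cells it matches the cluster described there as fibrocartilage, while all 6 cartilage genes compared were lower in these cells than in the other culture cells. The paper annotates as skin a cluster in whose culture cells it reports Nanog, and proposes that these may be undifferentiated pluripotent cells. By content code 3 matches that description, with epidermal keratins in its tail cells and Nanog in its culture cells. By number of cells code 5 matches it, since that cluster holds 556 culture cells in the paper, and code 5 carried Nanog too.

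Pou5f1, which encodes the core factor Oct4, stood at 545 CPM in the pluripotent-like cells and 76.5 CPM in the other culture cells, a ratio of 7.12 (6.83 to 7.43). Nanog, the factor that stabilises the naive circuit, stood at 131 against 17.2 CPM, a ratio of 7.59 (6.94 to 8.30). Utf1, a chromatin factor of undifferentiated embryonic cells, stood at 764 against 89.8 CPM, a ratio of 8.50 (8.18 to 8.83). Dppa5a, a small RNA-binding protein of the early embryo and germ line, stood at 4021 against 199 CPM, a ratio of 20.2 (19.7 to 20.7) that was 6.67 with the other clusters weighted equally. The 4 markers were thus higher in these cells, and the pooled comparison hid 2 further clusters that also carried them. Code 5 (556 cells) had 351 CPM of Pou5f1, 78.3 of Nanog, 405 of Utf1 and 376 of Dppa5a. Code 6 (435 cells) had 346, 84.2, 489 and 2155 CPM of the same genes in the same order, beside 27612 CPM of haemoglobin transcripts, and its cells were shallow, with a median of 2399 UMIs. In code 1 the 4 markers lay at 6.57, 1.51, 6.39 and 23.1 CPM. With codes 5 and 6 taken out of the comparison, an alternative chosen after seeing the data, 18.4% of 13057 genes were at least 2-fold higher and the ratios were 69.3 for Pou5f1, 80.7 for Nanog, 116 for Utf1 and 61.4 for Dppa5a. Code 13, a cluster of 43 cells, had 3197 CPM of Dppa5a (3027 to 3375) but 68.0 CPM of Pou5f1 and 0 UMIs of Nanog, Sox2, Dppa3 and Fgf4, so Dppa5a alone did not single out the pluripotent-like cells.

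**Figure D1:**
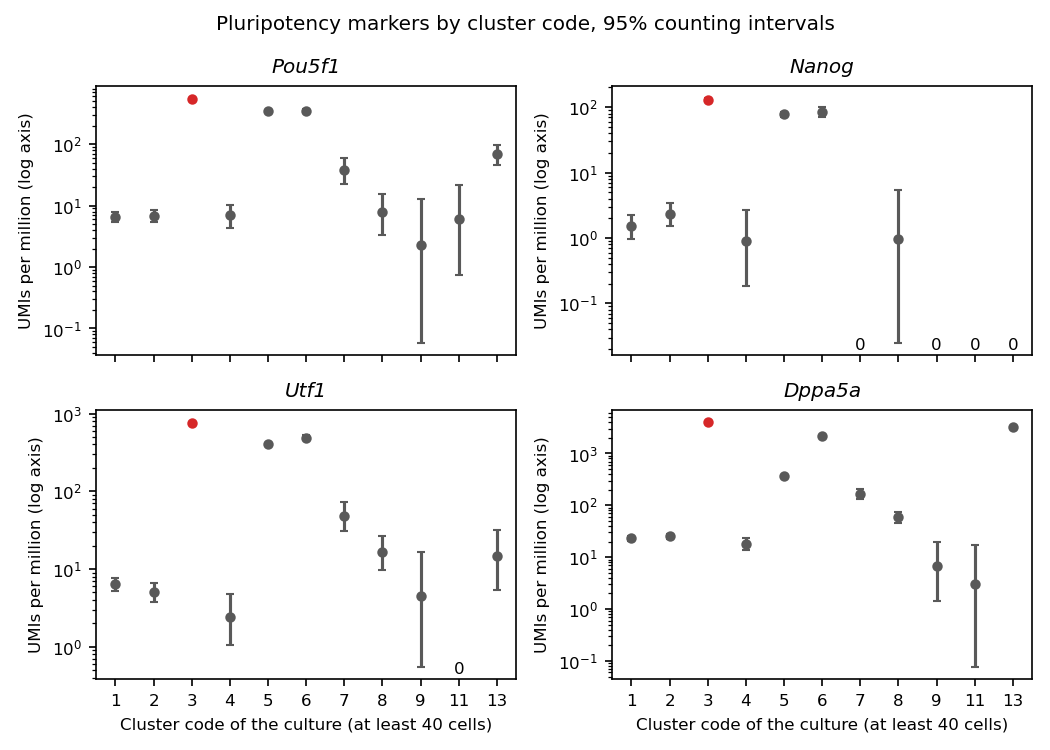
Level of Pou5f1, Nanog, Utf1 and Dppa5a (CPM, log axis) in each culture cluster of at least 40 cells; points are summed levels of 1 library, bars are 95% Poisson intervals, which are narrower than the point for code 3 (red), and a 0 marks a cluster with no UMI. Codes 3, 5 and 6 stand above the others for Pou5f1, Nanog and Utf1, and code 13 joins codes 3 and 6 for Dppa5a.

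Most of the marker RNA of the culture lay in these cells. They held 66.7% of all Pou5f1 UMIs, 68.1% of Nanog, 70.5% of Utf1 and 85.0% of Dppa5a, and code 5 held 24.5, 23.2, 21.3 and 4.53% of them. Per cell, the middle of the distribution ran from 314 to 748 CPM for Pou5f1 (quartiles, median 531), from 355 to 1070.2 for Utf1 (median 672), from 2106 to 6010.2 for Dppa5a (median 3781) and from 0 to 209 for Nanog (median 72.0). Nanog was therefore the one marker of which many cells had no UMI. After thinning to 3000 UMIs, which 1081 of the cells reached, 78.1% of cells had a UMI of Pou5f1 (75.5 to 80.5%), 81.7% of Utf1, 97.5% of Dppa5a and 28.7% of Nanog (26.0 to 31.5%). Code 1 was taken as cells that should lack these genes, and free RNA was not measured. The same shares there, called doublets included, were 1.43, 1.12, 3.66 and 0.385% over 2595 cells. Without thinning they were 96.1, 95.7, 98.5 and 54.9% in the pluripotent-like cells, at a median depth of 10369.5 UMIs, and 2.80, 1.65, 5.87 and 0.675% in code 1, at 4918.5 UMIs.

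Of the 1081 cells, 788 (72.9%) had at least 3 of the 4 markers at 3000 UMIs, and with all UMIs 1039 of 1088 did (95.5%), while 3 cells had none. In code 1 the count at 3000 UMIs was 4 of 2595, in code 5 it was 155 of 531 and in code 6 it was 60 of 166. Over all culture cells that reached 3000 UMIs, 1012 of 6664 met this criterion (15.2%, 14.3 to 16.1%), and 77.9% of those 1012 had code 3.

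Among 13545 genes with at least 100 UMIs, 1943 were at least 2-fold higher in the pluripotent-like cells than in the other culture cells (14.3% of the genes compared) and 3028 at least 2-fold lower (22.4%), with a median log2 ratio of -0.05 over all of them. The balance depended on the filter, since with every gene of at least 1 UMI 6679 were higher and 4816 lower. The 20 genes with the largest ratios, among those reaching 50 CPM, included genes of the early embryo and of the germ line. Dppa3 (Stella), which protects the maternal genome from demethylation, led them with 135 against 4.39 CPM, a ratio of 30.8 (26.4 to 36.1). Morc1, a silencer of transposable elements in male germ cells, followed with 77.6 against 2.74 CPM (28.4-fold, 23.3 to 34.8). The list included Gpa33, Lrrc31, Fbxo15, Hormad1, Tdrd12, Zfp981, Dnmt3l, Fgf4, Hsf2bp, Ooep, Dppa5a, Rec114, Smc1b, Dppa2, Gtsf1l, Triml2 and Ifitm1, whose ratios ran from 27.0 for Gpa33 down to 16.5 for Ifitm1. The pluripotent-like cells held between 82.3 and 89.7% of all culture UMIs of these 20 genes.

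Among the 20, Hormad1, Smc1b, Rec114 and Hsf2bp serve the meiotic chromosome axis and recombination. Hormad1, an axis protein that monitors synapsis, stood at 216 against 9.02 CPM (23.9-fold, 21.4 to 26.7). Smc1b, the meiotic cohesin subunit, stood at 201 against 10.6 CPM (interval of the ratio 17.1 to 21.0). Rec114, a partner of the enzyme that makes meiotic breaks, stood at 79.8 against 4.15 CPM (19.2-fold, 16.3 to 22.7), and Hsf2bp, a recombination factor, at 77.2 against 3.79 CPM (20.4-fold, 17.2 to 24.3). Hormad1 and Smc1b were found in more of these cells than of code 1. At 3000 UMIs 40.5% of the cells had a UMI of Hormad1 and 36.3% one of Smc1b, against 0.193 and 0.385% in code 1. They were not particular to these cells, since the shares were 19.3 and 11.4% in code 6 and 4.71 and 9.42% in code 5. Against code 6 the ratios of Hormad1, Smc1b, Rec114 and Hsf2bp were 1.96, 2.73, 1.45 and 1.82. Tdrd12, a Tudor protein of the piRNA pathway that silences transposons, stood at 237 against 10.5 CPM in the other culture cells (22.6-fold, 20.4 to 25.1). Dnmt3l, the catalytically inactive partner of the de novo DNA methyltransferases, stood at 176 against 8.09 CPM (21.8-fold, 19.4 to 24.5).

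Some of the leading genes are neighbours on the chromosome. By the order of protein-coding genes in the GRCm38.p6 RefSeq annotation, Dppa5a and Ooep lie side by side on chromosome 9, and Dppa2 and Morc1 on chromosome 16, both pairs within the 20. Further adjacent pairs, among the genes named by the rule that were at least 2-fold higher, were Dppa2 and Dppa4 (chromosome 16), Dppa3 with Nanog and with Gdf3 and Nanog with Slc2a3 (chromosome 6), Triml2 and Zfp42 (chromosome 8), Cldn3 and Cldn4 (chromosome 5), Gpa33 and Mael (chromosome 1), Gtsf1l and Mybl2 (chromosome 2), and Rhox5 and Rhox6 (chromosome X). Dppa4 stood at 144 against 9.62 CPM and Gdf3, a TGFβ-family ligand of pluripotent cells, at 91.4 against 7.70 CPM. The adjacency is a description, since reads of neighbours were counted separately and no test of clustering along chromosomes was made.

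The promoters of these genes show which letters lie before their starts. The windows are from RefSeq (GRCm38.p6) and run from 250 bases before the start to 50 after it. They were searched on both strands for ATGCAAAT, the octamer read by Oct4 and other POU factors, for a composite in which TTTGCAT, the octamer's larger share, is followed by any base and then by ACAA, most of a Sox motif, and, chosen after seeing the data, for CACGTG, the palindromic E-box of basic helix-loop-helix factors. The composite of octamer and Sox motif occurred in 0.0365% of the 32851 windows and in both windows listed for Nanog, but in none of the 14 leading genes that have a window. The octamer occurred in 1.74% of all windows and in that of Zfp42, also in none of the 14. With A fixed at the free base the composite was found in 0.00304% of windows and in none of the core, naive, germ line or leading genes. The E-box occurred in the windows of 8.09% of all 27025 genes with a window, in 3 of the 14 leading genes (Dnmt3l, Hormad1 and Rec114) and in 4 of 10 germ line genes (Ddx4, Mael, Stk31 and Sycp3). These counts are small and are given as a description; a match is not a bound site. The 250 bases before the start are printed for Nanog and Zfp42, which hold the POU motifs, and for 4 genes with E-boxes whose RNA was high in the pluripotent-like cells, with each motif in capitals.
Nanog, chr6:122707239-122707488, plus strand: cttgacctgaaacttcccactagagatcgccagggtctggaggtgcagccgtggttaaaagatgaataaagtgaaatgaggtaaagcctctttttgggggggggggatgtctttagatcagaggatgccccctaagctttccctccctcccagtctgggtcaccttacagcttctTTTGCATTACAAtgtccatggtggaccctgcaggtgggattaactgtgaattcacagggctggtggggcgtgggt
Zfp42, chr8:43307010-43307259, minus strand: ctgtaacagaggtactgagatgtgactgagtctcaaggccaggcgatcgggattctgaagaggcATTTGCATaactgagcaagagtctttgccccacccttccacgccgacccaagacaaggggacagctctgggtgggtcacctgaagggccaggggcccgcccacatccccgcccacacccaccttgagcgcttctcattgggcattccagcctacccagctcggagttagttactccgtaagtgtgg
Hormad1, chr3:95559427-95559676, plus strand: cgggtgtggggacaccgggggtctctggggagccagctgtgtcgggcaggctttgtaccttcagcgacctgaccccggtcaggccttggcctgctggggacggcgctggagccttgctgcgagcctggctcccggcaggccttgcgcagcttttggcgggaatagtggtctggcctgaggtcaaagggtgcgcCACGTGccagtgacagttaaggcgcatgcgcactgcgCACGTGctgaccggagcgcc
Sycp3, chr10:88459337-88459586, plus strand: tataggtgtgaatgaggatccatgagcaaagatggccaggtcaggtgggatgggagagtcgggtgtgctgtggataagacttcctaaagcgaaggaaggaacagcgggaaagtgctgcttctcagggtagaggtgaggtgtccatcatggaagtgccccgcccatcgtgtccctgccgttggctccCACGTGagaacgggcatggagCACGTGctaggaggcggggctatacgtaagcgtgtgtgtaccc
Rec114, chr9:58741560-58741809, minus strand: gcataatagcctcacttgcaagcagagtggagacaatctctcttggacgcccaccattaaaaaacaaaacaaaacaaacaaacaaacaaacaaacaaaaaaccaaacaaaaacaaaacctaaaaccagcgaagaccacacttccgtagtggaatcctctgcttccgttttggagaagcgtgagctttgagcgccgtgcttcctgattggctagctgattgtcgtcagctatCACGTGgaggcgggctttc
Dnmt3l, chr10:78049592-78049841, plus strand: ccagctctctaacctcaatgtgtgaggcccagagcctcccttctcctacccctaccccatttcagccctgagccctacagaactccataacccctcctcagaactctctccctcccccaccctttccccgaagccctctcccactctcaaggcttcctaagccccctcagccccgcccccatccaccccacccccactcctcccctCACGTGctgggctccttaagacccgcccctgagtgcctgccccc
In Nanog the composite begins 75 bases before the start. In Zfp42 the octamer, on the opposite strand, begins 186 bases before the start, and in Hormad1 the E-boxes begin 57 and 20 bases before it, in Sycp3 64 and 43.

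The core pluripotency list was higher throughout against the pooled other cells. All 15 of its genes were at least 2-fold higher than in the other culture cells, none lower, with a median log2 ratio of 3.09, against the 14.3% of all genes that were higher. Sox2, the partner of Oct4, stood at 373 against 42.7 CPM (8.73-fold, 8.26 to 9.23). Tdgf1 (Cripto), the co-receptor for Nodal, stood at 405 against 32.2 CPM (12.6-fold, 11.8 to 13.4). Fbxo15, a classical Oct4 and Sox2 target that is dispensable for embryonic stem cells, stood at 165 against 6.48 CPM (25.5-fold, 22.4 to 29.1), and Lin28a, which blocks the processing of let-7 microRNAs, at 63.4 against 28.2 CPM (2.25-fold, 2.05 to 2.46), the smallest ratio of the list. Against code 5, 7 of the 15 were higher and 1, Lin28a, was lower (median 0.92), where 8.16% of all genes were higher and 6.02% lower. Against code 6, 3 of 14 were higher and none lower (median 0.76), where 2.32% of all genes were higher and 4.61% lower. With codes 5 and 6 taken out of the other cells the median of the list was 6.12. The list was written with earlier results of these data known, and the cluster was made from the same genes, so these counts describe the cluster and do not support its name independently.

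Of the naive genes, 14 of 16 with enough UMIs were at least 2-fold higher and none 2-fold lower, against 14.3 and 22.4% of all genes. Their median log2 ratio was 3.71, which was 2.14 with the other clusters weighted equally. Zfp42 (Rex1), a zinc finger protein of the inner cell mass, stood at 100 against 6.14 CPM (16.3-fold, 14.2 to 18.7). Klf2, a Krüppel-like factor of the naive circuit, stood at 415 against 50.7 CPM (8.18-fold, 7.77 to 8.62). Tfcp2l1, a target of the LIF pathway, stood at 40.7 against 4.29 CPM (9.47-fold, 7.96 to 11.3), and Nr0b1 (Dax1), a nuclear receptor of embryonic stem cells, at 33.2 against 1.10 CPM (30.1-fold, 22.1 to 41.7). Esrrb, another nuclear receptor of this circuit, stood at 29.5 against 1.18 CPM (25.1-fold, 18.6 to 34.6), and 8.60% of the cells had a UMI of it at 3000 UMIs, against 0.231% in code 1. The 2 naive genes short of 2-fold were Klf4, at 33.0 against 34.6 CPM, and Gbx2, at 3.41 against 2.66 CPM; Klf4 was also found in code 1, at 29.1 CPM.

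The primed and formative list was mixed, with 4 of 12 genes at least 2-fold higher, 2 lower and a median log2 ratio of 0.54. Over all genes 14.3% were higher and 22.4% lower, so the share of lower genes in the list was not above that of all genes. Otx2, the homeobox factor that drives exit from the naive grade, stood at 115 against 18.9 CPM (6.08-fold, 5.57 to 6.65). Pou3f1 (Oct6), a POU factor of the epiblast, stood at 161 against 62.0 CPM (2.59-fold, 2.44 to 2.75) and Dnmt3b, the de novo methyltransferase of the epiblast, at 273 against 120.3 CPM (2.27-fold, 2.17 to 2.37). Fgf5, the classical marker of the primed epiblast, was low, at 14.4 against 9.14 CPM. The pluripotent-like cluster therefore held genes of both grades.

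A comparison with code 5 separates the grades, since both clusters carry Pou5f1. Over 10515 genes, 858 were at least 2-fold higher in the pluripotent-like cells than in code 5 (8.16%) and 633 at least 2-fold lower (6.02%). Of the naive genes, 15 of 16 were higher and 1, Gbx2, was lower (3.41 against 15.3 CPM), with a median log2 ratio of 3.80. Dppa3 stood at 135 against 5.09 CPM (26.6-fold), Dnmt3l at 176 against 7.48 CPM (23.5-fold, 17.8 to 31.8), Klf2 at 415 against 45.2 CPM (9.18-fold, 8.17 to 10.3) and Zfp42 at 100 against 13.6 CPM (7.34-fold, 5.93 to 9.19). Of the primed and formative genes none was 2-fold higher and 6 of 12 were lower, with a median of -0.81: Dnmt3b stood at 273 against 674 CPM, Pou3f1 at 161 against 345 CPM and Fgf5 at 14.4 against 44.2 CPM (ratio 0.326, 0.269 to 0.396). Otx2 went the other way, at 115 against 71.0 CPM. Lin28a and Lin28b, at 63.4 and 25.9 CPM, were at 0.411 and 0.342 times their levels in code 5. These ratios compare clusters of 1 library and say nothing of other cultures. Against code 6 fewer genes differed, 226 of 9723 being at least 2-fold higher (2.32%) and 448 at least 2-fold lower (4.61%). Of the naive genes 1 of 15 was higher than in code 6 and 1 lower (median 0.54), so code 6 shared most of the naive levels. Of 10 primed and formative genes none was 2-fold higher or lower than in code 6 (median 0.70).

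**Figure D2:**
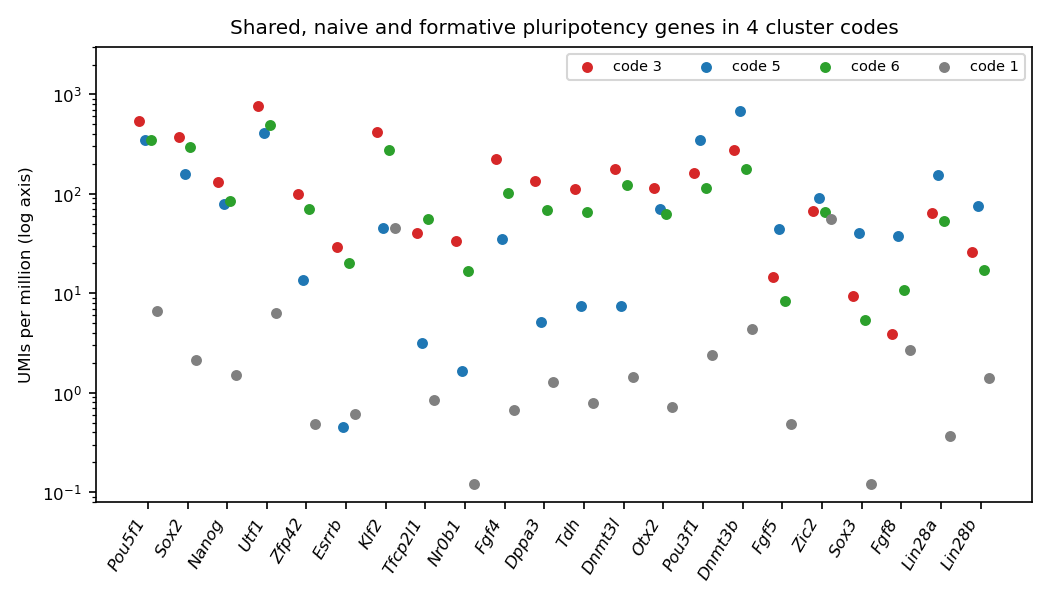
Summed level (CPM, log axis) of 22 pluripotency genes in the pluripotent-like cells (code 3), code 5, code 6 and the tendon cells of code 1; each point is 1 cluster of 1 library and a gene with no UMI has no point. The genes from Zfp42 to Dnmt3l are far apart between codes 3 and 5, Pou3f1, Dnmt3b, Fgf5, Sox3 and Fgf8 lie higher in code 5, and code 6 follows code 3 for most genes.

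Nodal, LIF and FGF are the signals by which pluripotent cells keep or leave their state. In the Nodal list 5 of 11 genes were at least 2-fold higher than in the other culture cells and 1 lower, with a median log2 ratio of 0.67. The ligand Nodal stood at 64.9 against 10.0 CPM (6.47-fold, 5.73 to 7.31), the antagonist and target Lefty1 at 265 against 84.7 CPM (3.13-fold, 2.98 to 3.28), and Gdf3 as above. Of the receptors, Acvr2a was at 8.61 against 21.4 CPM and Acvr2b at 69.4 against 43.7 CPM. In the LIF list 1 of 8 genes was higher (Tfcp2l1) and 2 were lower: Il6st, the signal-transducing receptor subunit gp130, at 24.0 against 57.8 CPM, and Stat3, its transcription factor, at 31.0 against 105 CPM. Both shares of the LIF list lay near those of all genes, 14.3% higher and 22.4% lower. The receptor Lifr was at 22.7 against 17.8 CPM and the ligand Lif at 2.47 against 1.87 CPM. In the FGF list 2 of 13 genes were higher and 8 lower, with a median of -1.24. Fgf4, the autocrine ligand of pluripotent cells, stood at 222 against 10.4 CPM (21.4-fold, 19.3 to 23.7) and Etv5, an ETS factor downstream of FGF that is also part of the pluripotency network, at 81.8 against 18.5 CPM (4.41-fold, 4.01 to 4.85). The receptor Fgfr1 stood at 56.7 against 204 CPM, and the feedback genes Dusp6 and Spry4 at 26.7 against 112 CPM and 4.18 against 17.3 CPM. Against code 5, 2 of 11 Nodal genes were higher and none lower (median -0.16), with Lefty1 at 265 against 433 CPM. Of the LIF genes 3 of 7 were higher and none lower (median 0.70). Stat3, Il6st and Lifr stood in code 5 at 19.2, 18.3 and 6.59 CPM, below the pluripotent-like cells. Of the FGF genes 2 of 11 were higher and 2 lower (median -0.15). Over all genes 8.16% were higher and 6.02% lower than in code 5.

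Genes of the Hedgehog and TGFβ pathways, which the last medium activates, and of BMP and retinoic acid signalling were mostly lower in these cells than in the pooled other cells, while most WNT genes stayed within 2-fold. Against code 5 the TGFβ genes did not stand apart, with none of 5 at least 2-fold lower (median 0.06), and 4 of 7 Hedgehog, 3 of 9 BMP and 3 of 7 retinoic acid genes were lower (medians -1.14, -0.74 and -0.76). Over all genes 8.16% were higher and 6.02% lower than in code 5, and 14.3 and 22.4% than in the pooled other cells, to which the counts below refer. Of the Hedgehog genes none was 2-fold higher and 7 of 11 were lower, with a median log2 ratio of -1.51. Among the transcriptional targets, Ptch1, the receptor, stood at 92.2 against 213 CPM, Gli1 at 2.73 against 17.8 CPM and Hhip, a secreted antagonist, at 4.01 against 81.1 CPM, so Hhip was 20.2-fold lower (15.2 to 27.6). Of the TGFβ ligands, receptors and response genes none was 2-fold higher and 9 of 11 were lower, with a median of -2.71. The ligands Tgfb1, Tgfb2 and Tgfb3 stood at 1.96 against 47.7, 2.30 against 62.2 and 1.02 against 35.0 CPM, the type II receptor Tgfbr2 stood at 1.79 against 51.1 CPM (28.6-fold lower, 18.6 to 46.2), the type I receptor Tgfbr1 at 15.9 against 65.7 CPM and the matrix protein Tgfbi at 5.71 against 174 CPM. Smad7 and Skil, 2 inhibitors that the pathway induces, did not reach 2-fold, at 65.8 against 69.8 CPM and 157 against 185 CPM. Of the BMP genes 9 of 12 were lower and none higher (median -2.56). The ligand Bmp4 stood at 1.79 against 74.4 CPM, and the targets Id1 and Id3 at 10.7 against 132 CPM and 23.5 against 323 CPM. Of the WNT genes 1 of 12 was higher, Tcf7 at 80.8 against 13.8 CPM (5.86-fold, 5.28 to 6.51), and 4 were lower (median -0.70). Retinoic acid genes were lower in 10 of 13 cases (median -2.67), with the synthesis enzyme Aldh1a3 at 2.64 against 91.1 CPM. The 1 higher gene was Stra8, the retinoic acid target that opens meiosis, at 139.8 against 20.4 CPM (6.84-fold, 6.29 to 7.44). All culture cells had the same media, so the response to a factor and the cell's own state cannot be told apart in these values.

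Chromatin regulators were more often higher than lower against the pooled other cells, but not against code 5, where none of 12 Polycomb genes was higher and 1 was lower (median 0.09) and 3 of 9 DNA methylation genes were higher and 2 lower (median -0.16). Of 10 regulators of RNA 2 were higher and 2 lower than in code 5 (median -0.20). The shares of all genes were 8.16% higher and 6.02% lower against code 5, and 14.3 and 22.4% against the pooled other cells, to which the counts below refer. In the DNA methylation list 4 of 9 genes were at least 2-fold higher and 1 lower: Dnmt3l and Dnmt3b as above, the hydroxylase Tet1 at 335 against 67.3 CPM (4.98-fold, 4.74 to 5.23) and Uhrf1, which guides maintenance methylation, at 153 against 71.4 CPM. Tet3 was lower, at 11.2 against 48.9 CPM. In the Polycomb list 6 of 12 were higher and none lower (median log2 ratio 1.06). Cbx7, the chromodomain subunit of Polycomb repressive complex 1 in embryonic stem cells, stood at 72.2 against 13.7 CPM (5.25-fold, 4.72 to 5.85). Pcgf6, a subunit of the variant complex that holds germ line genes silent, stood at 120.3 against 35.6 CPM, and Suz12, a core subunit of complex 2, at 372 against 156 CPM. Of the regulators of RNA 6 of 10 were higher and 2 lower. The splicing factor Esrp1, of epithelial cells, was at 46.5 against 10.1 CPM, and Mbnl1 and Mbnl2, splicing factors of differentiated cells, were at 14.8 against 66.5 CPM and 90.0 against 325 CPM. Imprinted genes lay the other way, with 12 of 16 lower, 2 higher and a median of -2.89. H19, a maternally expressed non-coding RNA, stood at 50.6 against 1287 CPM (25.5-fold lower, 23.5 to 27.6), Igf2 at 3.84 against 135 CPM and Dlk1 at 28.7 against 757 CPM, while Phlda2 stood at 99.7 against 21.2 CPM.

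Of 14 germ line genes, 13 were at least 2-fold higher and none lower, with a median log2 ratio of 2.92. Over all genes 14.3% were higher and 22.4% lower. Besides Dppa3, Tfap2c (AP-2γ), a factor of primordial germ cells and trophoblast, stood at 40.2 against 1.80 CPM (22.3-fold, 17.5 to 28.9). Sycp3, the lateral element of the synaptonemal complex, stood at 108 against 17.3 CPM (6.27-fold, 5.71 to 6.88), and the X-linked homeobox gene Rhox5 at 296 against 66.2 CPM (4.47-fold, 4.25 to 4.71). The RNA-binding proteins Dazl and Ddx4 (Vasa), which define later germ cells, were each at 31.3 CPM, against 4.08 and 6.86, and at 3000 UMIs 7.77 and 8.33% of the cells had a UMI of them, compared with 0.0385 and 0.886% in code 1. Prdm1 (Blimp1), which specifies germ cells, was at 15.2 against 1.66 CPM. Nanos3, a marker of migrating germ cells, was at 2.13 against 3.34 CPM, and Tex101 had too few UMIs to compare. Against code 5, 8 of 13 were higher and none lower, but against code 6 only 1 of 13 was higher (median 0.39), with Sycp3 at 108 against 111 CPM and Dazl at 31.3 against 31.6 CPM. The shares of all genes were 8.16% higher and 6.02% lower against code 5, and 2.32 and 4.61% against code 6. None of the 8 genes of the 2-cell-like state present in the table reached 100 UMIs.

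Of the lists of committed lineages, those of endoderm and mesoderm were mostly lower and the neural list was mixed. Over all genes 14.3% were at least 2-fold higher and 22.4% lower. All 9 endoderm genes compared were lower (median log2 ratio -4.36), among them Sox17 at 0.426 against 8.93 CPM and Gata6 at 2.30 against 17.5 CPM. Of the primitive streak and mesoderm genes, 5 of the 12 in the table had enough UMIs, of which 4 were lower, such as Foxc1 at 4.95 against 185 CPM and Meox1 at 3.07 against 90.5 CPM. The streak factors T and Mixl1 stood at 0.256 and 0.0853 CPM. Eomes, which acts in the streak and in trophoblast, was the 1 higher gene, at 7.33 against 1.56 CPM, with a UMI in 2.31% of cells at 3000 UMIs. Of the 6 neural genes compared, 2 were higher and 4 lower (median -1.66): the neuronal tubulin Tubb3 stood at 35.1 against 10.6 CPM and the eye and brain factor Pax6 at 4.60 against 1.70 CPM, while Sox1, a factor of the neural plate, stood at 2.13 against 5.49 CPM. The 4 nerve markers summed to 56.7 CPM, against 18.3 CPM in the other culture cells. The 20 genes with the smallest ratios included the embryonic globins Hba-x and Hbb-y, which lay in code 6, and matrix and secreted proteins of connective tissue: Thbs4 at 0.341 against 54.0 CPM, Ccdc80 at 0.512 against 61.4 CPM, Aspn at 0.853 against 70.8 CPM and Mgp at 28.2 against 1618 CPM. The others were C1qtnf3, Tm4sf1, Lama4, Pga5, Igfbp7, Lrrc17, Rspo3, Wisp1, Fgf18, Dcn, Vcam1, Cyp1b1, Naalad2 and Col8a1.

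The 9 tendon genes were all lower, with a median log2 ratio of -5.50, and their summed level was 245 CPM against 9945 CPM in the other culture cells, 40.6-fold lower (39.1 to 42.1), or 20.4-fold with the other clusters weighted equally. Scx, the transcription factor of the tendon lineage and of the reporter, stood at 70.7 against 1872 CPM, and Col1a1, the main tendon collagen, at 41.1 against 1854 CPM. This residue was unevenly spread over the cells. The median cell had 72.6 CPM of the 9 genes, against 14129 CPM in code 1, and 454 of the 1088 cells had none. The 36 cells with at least 1000 CPM, a limit set after seeing the data, held 53.5% of the summed level, and 24 of them were called doublets. With called doublets left out of both sides the summed tendon level was 81.4-fold lower, and 8.72% of the remaining cells had a UMI of Scx at 3000 UMIs, against 91.3% in code 1. The 6 cartilage genes were all lower as well (median -4.27), with Col2a1 at 26.9 against 410.3 CPM. Over all genes compared 22.4% were at least 2-fold lower.

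The mesenchymal genes were lower in the pluripotent-like cells, and the epithelial list was higher against the pooled other cells, with a median of -0.12 when the other clusters were weighted equally. Of 16 epithelial genes 7 were at least 2-fold higher and 2 lower (median log2 ratio 0.84), where 14.3% of all genes were higher and 22.4% lower. Epcam stood at 786 against 177 CPM (4.43-fold, 4.30 to 4.57), and Cdh1 (E-cadherin), the cadherin of embryonic stem cells and epithelia, at 114 against 26.0 CPM (4.37-fold, 4.03 to 4.74). The tight junction genes Cldn4 and Cldn7 stood at 62.1 against 15.8 CPM and 82.5 against 30.3 CPM, while Krt8, the keratin of simple epithelium, was lower, at 41.9 against 109 CPM. All 11 mesenchymal genes compared were lower (median -3.54). Cdh2 (N-cadherin) stood at 4.52 against 52.6 CPM, Twist1 at 20.9 against 473 CPM and the intermediate filament Vim at 128 against 1428 CPM. Against code 5 the epithelial genes were close (median 0.23), and 4 of 7 mesenchymal genes were lower, where 6.02% of all genes were lower. Among the marker sets of other cell types, the 4 of endothelium summed to 85.1 CPM, mostly from Pecam1 (84.0 CPM), an adhesion molecule that naive stem cells also carry, and the 4 of blood to 4.43 CPM.

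CDK inhibitors were lower in the pluripotent-like cells than in the pooled other cells, though mostly not lower than in code 5, and few of the cells were called G1. Of 7 CDK inhibitors 6 were at least 2-fold lower and none higher (median log2 ratio -1.50). Cdkn1c (p57), the imprinted inhibitor of differentiating mesenchyme, stood at 107 against 1283 CPM (12.0-fold lower, 11.4 to 12.7), and Cdkn1a (p21), a p53 target, at 189 against 533 CPM. Against code 5, 2 of 6 CDK inhibitors were higher, Cdkn2a at 34.0 against 16.6 CPM and Cdkn2b at 12.9 against 5.09 CPM, and 1, Cdkn1c, was lower (median 0.42). Over all genes 8.16% were higher and 6.02% lower than in code 5. Of 14 cyclins and cycle kinases 1 was higher, Mybl2 (B-Myb), at 261 against 31.3 CPM (8.35-fold, 7.82 to 8.91), and 2 were lower, Ccnd2 at 36.8 against 463 CPM and Ccne2 at 7.59 against 25.4 CPM, both shares below the 14.3 and 22.4% of all genes. Phase was called from 43 S genes and 54 G2/M genes on cells thinned to 3000 UMIs. Of the pluripotent-like cells 3.15% were called G1 (2.19 to 4.37%), 39.5% S and 57.4% G2/M, and in code 1 57.6% were called G1 (55.6 to 59.5%). Code 5 was close to the pluripotent-like cells in G1, at 4.90% (3.22 to 7.09%), and few G1 calls were not particular to them: code 2 had 0 of 1341 cells called G1, which by 3 counts allows a share of up to 0.224%, and 85.4% in G2/M. The calls rest on scores relative to all cells of the culture and depend on depth: at 5000 UMIs the shares in S and G2/M were 33.4 and 61.9%, and the part of free RNA in them was not tested. Top2a, a G2/M gene, had a UMI in 76.0% of the pluripotent-like cells and in 21.2% of code 1.

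**Figure D3:**
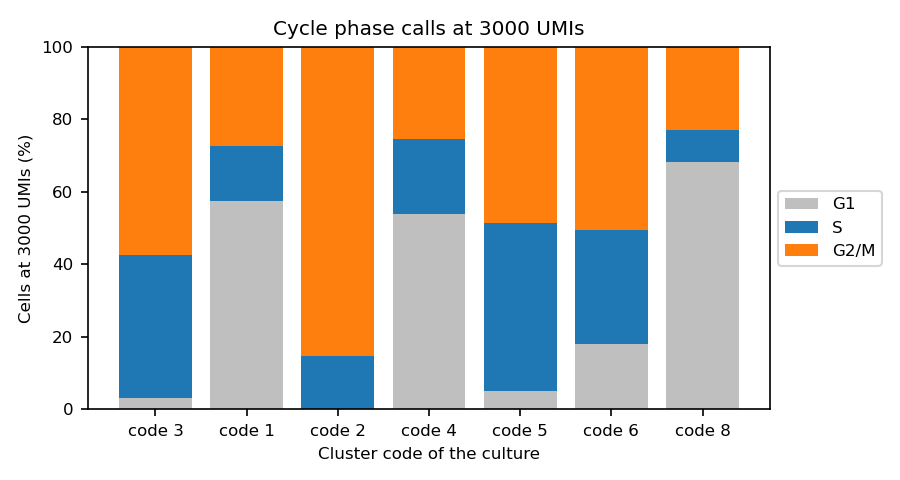
Share of cells (%) called G1, S or G2/M in the culture clusters with at least 100 cells at 3000 UMIs, 1 library. The pluripotent-like cells of code 3 and the cells of code 5 have few G1 calls, 3.15% and 4.90%, code 2 has none, and code 1 has 57.6%.

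In metabolism the one-carbon list stood out by its counts, with 10 of 15 genes at least 2-fold higher and none lower (median log2 ratio 1.15). Tdh, the threonine dehydrogenase on which mouse embryonic stem cells depend, stood at 111 against 7.77 CPM (14.2-fold, 12.6 to 16.1), and Gldc, of the glycine cleavage system, at 114 against 20.7 CPM. Against code 5 Tdh was the 1 gene of the 15 that was 2-fold higher, at 111 against 7.48 CPM (14.8-fold), and the median of the list was -0.07. That count was not above the 8.16% of all genes that were higher than in code 5. Of 15 glycolysis genes 2 were higher and none lower: the glucose transporter Slc2a3 at 659 against 225 CPM and the phosphofructokinase Pfkp at 264 against 82.2 CPM. Of the p53 and apoptosis genes 2 of 15 were higher, Mcl1 at 694 against 249 CPM and Sesn2 at 80.8 against 31.8 CPM, and 1 was lower, Bcl2 at 2.30 against 23.4 CPM. The shares that were higher in the glycolysis, p53 and hypoxia lists lay near or below the 14.3% of all genes that were higher. Of 11 stress response genes 4 were higher and 2 lower, with a median of 0.38 that was -0.41 with the other clusters weighted equally. Asns, an Atf4 target, stood at 523 against 139 CPM and Trib3 at 54.5 against 15.8 CPM, while the immediate early genes Jun and Egr1 stood at 48.1 against 230.5 CPM and 20.7 against 55.4 CPM. Of 12 hypoxia genes 1 was higher and 3 lower, a share of lower genes near the 22.4% of all genes, with Vegfa at 47.8 against 113 CPM.

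**Figure D4:**
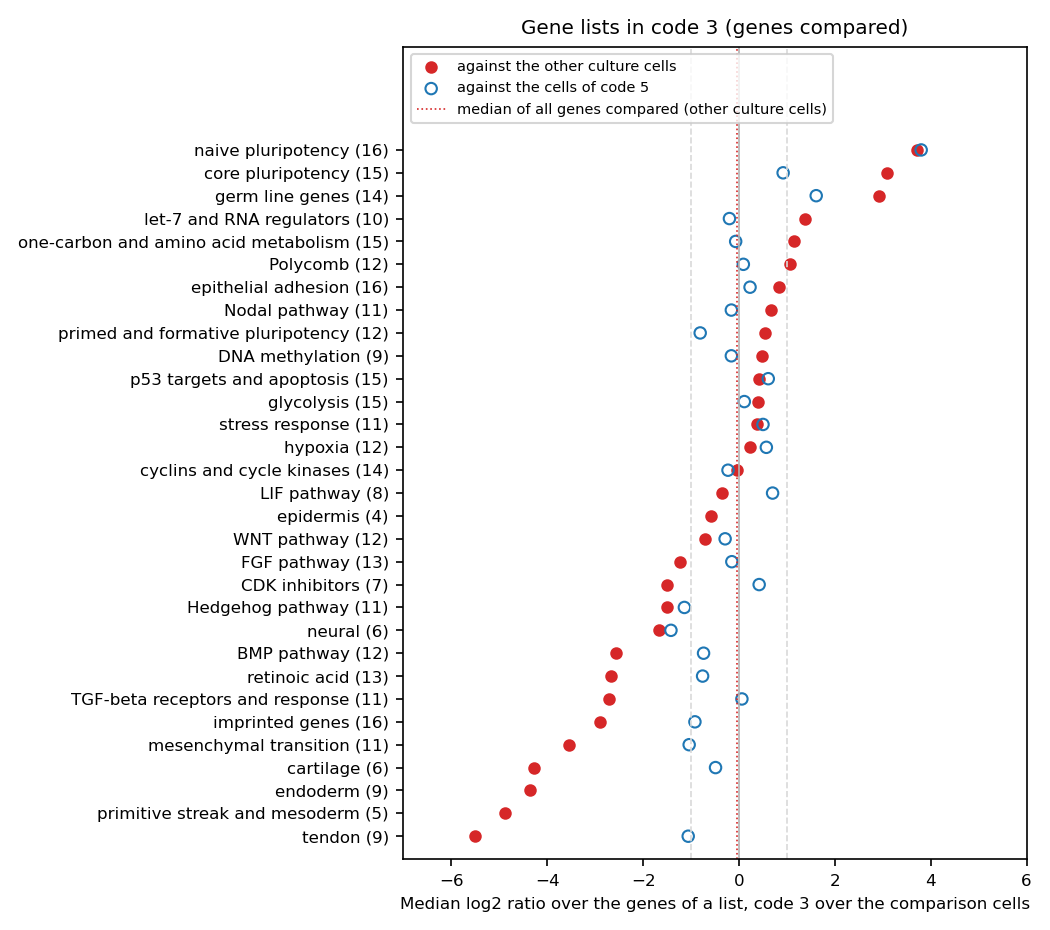
Median log2 ratio of each gene list in the pluripotent-like cells against the other culture cells (filled) and against code 5 (open, where at least 4 genes had enough UMIs); brackets give the genes compared with the other culture cells, dashed lines mark 2-fold and the dotted line is the median of all genes, -0.05. The naive list has the highest median in both comparisons as drawn (3.71 and 3.80). Against the other culture cells it lost this rank with clusters weighted equally, at 2.14 against 2.84 for the markers and 2.71 for the core list. It also lost it without codes 5 and 6, at 4.50 against 6.22 and 6.12. Against code 5 the other lists run from -1.42 (neural) to 1.61 (germ line).

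The pluripotent-like cells varied among themselves. Of 7331 genes with a mean of at least 0.05 UMIs at 3000 UMIs per cell, the median ratio of variance to mean (Fano factor, 1 for pure counting) was 1.04. The largest were those of Gm42418 (22.0), which overlaps ribosomal RNA, the nuclear RNA Malat1 (17.2), the metallothionein Mt1 (10.1), AA467197 (7.29), Apoe (6.86), Dppa5a (6.66), mt-Rnr2 (6.64), Lefty1 (6.04), Hist1h4i (5.42) and Rhox5 (5.38). The next were Fabp3, Krt8, Gas5, H19, S100a13, Ldhb, Spp1, Meg3, Ifitm1 and mt-Cytb. Lefty1 had a mean of 0.724 UMIs and a UMI in 25.2% of cells. AA467197 had a mean of 0.112 UMIs and, without called doublets, a UMI in 6.64% of cells. Of these 20, 19 remained without called doublets, H19 being lost.

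Clustering the 1088 cells alone gave 4 sub-clusters, which are numbered and not named. Their leading genes are what the clustering used and are not results. Sub-cluster 1 (528 cells, 48.5%) was led by Jam2, Klf4, Lrrc31, Tcl1 and Cobl, and sub-cluster 2 (443 cells, 40.7%) by Krt8, Pim2, Pou3f1, Trio and Car4. Sub-cluster 3 (84 cells, 7.72%) was led by Aard, Rhox9, Rhox6, Calcoco2 and Tfap2c. Sub-cluster 4 (33 cells, 3.03%) was led by Col11a1, Cdh11, Fmod, Ogn and Dlk1, 25 of its cells were called doublets, and its tendon genes summed to 3397 CPM. The first 3 were not equally deep, with medians of 8012.5, 12481 and 14285 UMIs, and the levels given here are of genes that the clustering could use, so they describe the split. Pou5f1 was similar in them, at 598, 489 and 673 CPM, as was Otx2, at 116, 121 and 91.9 CPM. Nanog stood at 175, 63.6 and 287 CPM, Zfp42 at 137, 62.3 and 149.6 CPM, Klf2 at 589.8, 229 and 655 CPM, and Dppa5a at 5661, 2379 and 5791 CPM. Of the formative genes, Dnmt3b stood at 114, 439 and 130.3 CPM and Pou3f1 at 43.7, 286 and 34.3 CPM, and Lefty1 stood at 101, 436 and 149 CPM. Dppa3 was most abundant in sub-cluster 3, at 163, 65.8 and 370.1 CPM, as was Rhox5, at 859.7 CPM against 232 CPM in the other pluripotent-like cells.

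**Figure D5:**
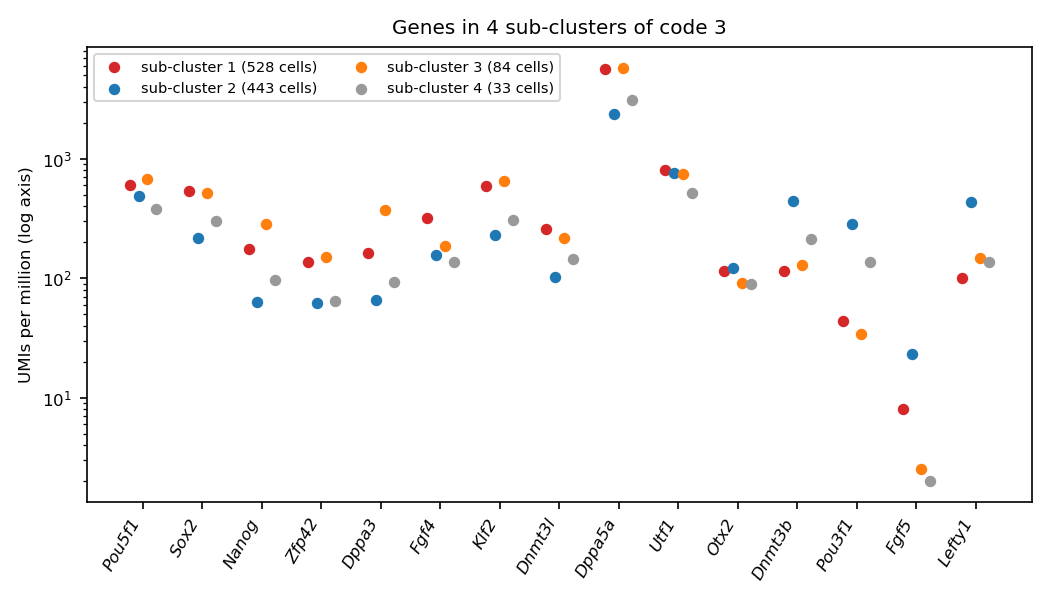
Summed level (CPM, log axis) of 15 genes in the 4 sub-clusters of the pluripotent-like cells; each point is 1 sub-cluster of 1 library. Sub-cluster 2 lies below sub-clusters 1 and 3 for Nanog, Zfp42, Dppa3, Klf2 and Dppa5a and above them for Dnmt3b, Pou3f1, Fgf5 and Lefty1.

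Pairs of genes were also counted within single cells at 3000 UMIs, where the share with both genes is set beside the product of the single shares. Pou3f1 and Dnmt3b were found together in 15.4% of the 1081 cells (13.3 to 17.7%), against a product of 9.78%, and Otx2 and Pou3f1 in 8.42% (6.83 to 10.2%) against 6.09%. Dppa3 and Dnmt3b were found together in 5.74% (4.43 to 7.29%), against a product of 9.42%, Pou3f1 and Dppa3 in 3.24% (2.27 to 4.47%) against 6.28%, and Nanog and Dnmt3b in 8.33% (6.75 to 10.1%) against 11.0%. Klf2 and Dppa3 were found together in 17.3% (15.1 to 19.7%) against 14.1%, and the meiotic genes Hormad1 and Smc1b in 18.1% (15.9 to 20.6%) against 14.7%. For Pou5f1 and Sox2 the share, 48.1% (45.1 to 51.1%), was close to the product of 46.8%, and for Dppa3 and Zfp42, at 6.29 against 6.03%, it was too.

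The paraxial mesoderm library held a cluster with the same markers, code 2 with 1038 cells, in which Pou5f1 stood at 459.7 CPM, Nanog at 326, Utf1 at 388 and Dppa5a at 6302 CPM. Relative to it, the pluripotent-like cells of the tendon culture had 1.19 times the Pou5f1 level, 1.97 times that of Utf1, 2.43 times that of Fgf4 and 1.72 times that of Dnmt3l. They had 0.401 times the level of Nanog, 0.293 times that of Dppa3, 0.633 times that of Zfp42, 0.638 times that of Dppa5a, 0.696 times that of Klf2 and 0.752 times that of Sox2. They had 11.8 times the level of Otx2 (9.76 to 14.3), 10.7 times that of Pou3f1 (9.18 to 12.5), 9.50 times that of Dnmt3b (8.50 to 10.6), 5.23 times that of Lefty1 and 5.01 times that of Fgf5. Library, day and medium differ together between these cells and cannot be told apart.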

How the data were processed

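Single-cell RNA-seq was done on 3 libraries: the tendon culture, cells differentiated to paraxial mesoderm and the E14.5 tail. The authors deposited raw counts of UMIs per gene and cell with their Cell Ranger counting and Seurat 3.0 cluster codes in the first row. They kept cells below a mitochondrial limit and left out the cells at both extremes of depth. The genome build of the counts is not given in the sources used here. No column belonged to another series (0). Counts were summed over cells and divided by the total to CPM. Intervals are exact at 95% (Poisson for levels, conditional binomial for ratios, Clopper-Pearson for shares). With 1 library per condition no test was run. Genes were compared with at least 100 UMIs over both groups, at a 2-fold limit, which recovered 200 of 200 genes changed 4-fold in simulated data over 13290 genes and called 7 others. Genes named are the 4 markers, members of 33 lists, the 20 largest and 20 smallest ratios among genes reaching 50 CPM, the 5 leading genes of each sub-cluster and the 20 largest Fano factors. Some genes that this rule names are not reported here. The cells and lists were chosen with earlier results of these data known. Sub-clusters came from Scanpy 1.11.5 (2000 genes, 30 components, 15 neighbours, Leiden resolution 0.5), doublets from Scrublet (expected rate 6%; called cells were kept), and cycle lists from Seurat 5.3.0. Promoter windows came from RefSeq, GRCm38.p6, matched by symbol for 14 of the 20 leading genes. Alternatives covered doublets, shallow cells, scaling, weighting of clusters, filters, thinning depth and resolution.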

Additional observations from a re-analysis of the deposited data

How the results depend on the processing

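No paired analysis was possible because each condition was 1 library without replicates, so no leaving out of a replicate could be done either. The ratios of Pou5f1, Utf1 and Dppa5a were 7.67, 9.19 and 23.7 with doublets left out. As a mean of per-cell CPM, those of Pou5f1, Nanog, Utf1 and Dppa5a were 9.09, 9.38, 10.5 and 17.3. Scaled by the median of gene ratios, which moved the median log2 ratio of all genes by -0.12, those of Pou5f1, Utf1 and Dppa5a were 6.57, 7.84 and 18.6. With the other clusters weighted equally they were 6.49, 7.70 and 6.67, a setting in which the 43 cells of code 13, at 3197 CPM of Dppa5a, count as much as code 1. Without codes 5 and 6 among the other cells the 4 ratios were 69.3, 80.7, 116 and 61.4. The ratio of Dppa5a was 21.9 without cells under 1000 genes and 20.9 without mitochondrial and ribosomal protein genes in the total. The tendon genes were 81.4-fold lower without doublets, 49.7-fold as a per-cell mean, 44.0-fold on the scale of gene ratios, 20.4-fold with clusters weighted equally and 49.9-fold without codes 5 and 6. With no filter beyond 1 UMI, 6679 genes were at least 2-fold higher and 4816 lower, so the split of higher against lower turned round, and at 4-fold the counts were 670 and 1611. Marker-positive cells were 15.2% of the 6664 culture cells that reached 3000 UMIs. Cells with code 3 were 13.9% of all 7821 culture cells, so the shares have different bases and are not compared. At 5000 UMIs the shares with a UMI of Pou5f1, Nanog and Utf1 were 88.6, 39.3 and 91.2%, and those in S and G2/M 33.4 and 61.9%. At resolution 1 there were 9 sub-clusters. Of 224 list medians recomputed under these scalings and selections, 214 moved by less than 1 on the log2 scale, 10 moved more and 0 changed sign among those past 2-fold. The 10 were tendon and cartilage without doublets (-6.68 and -5.35), naive, endoderm and tendon with clusters weighted equally (2.14, -5.49 and -4.44), and the markers, core, RNA regulators, germ line and neural lists without codes 5 and 6 (6.22, 6.12, 2.84, 4.40 and -2.70). With clusters weighted equally, medians short of 2-fold turned sign for the epithelial (-0.12), hypoxia (-0.24), stress (-0.41) and cyclin (0.16) lists, the last also on 3 other settings. Depth limits genes under 100 UMIs, and 1 library per condition leaves the spread between cultures unknown.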
